A study of Zea mays with 18 samples.

Results

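The third leaf below the ear was compared with the ear leaf in maize grown at low plant density, which asks how transcript levels differ between a lower leaf and the leaf that subtends the ear when crowding is low. The comparison used 6 of the 18 RNA sequencing libraries of the series, the 3 titled LB (lower leaf) and the 3 titled LE (ear leaf). All plants were the hybrid Xianyu 335, sampled as leaves at grain filling under growth described in the labels only as normal. The same pair of positions at high density, HB against HE, was set beside it, and it shares no library with LB and LE. The remaining libraries came from the third leaf above the ear (LA and HA) and entered the estimate of spread. For LA the titles say low density, whereas the treatment label says high. Whether the 3 libraries within a group are separate plants is not in the labels. The p-values therefore reflect only how far these samples scatter, which may be technical.

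Maize leaves appear in succession up the stem, so that a leaf below the ear is older than the ear leaf. As a C4 plant, maize fixes carbon dioxide with phosphoenolpyruvate carboxylase in mesophyll cells and again with Rubisco in bundle sheath cells. During grain filling the older leaves are usually the first to lose chlorophyll and export nitrogen. Leaves are also the source of florigen, a small protein of the FT family that moves to the shoot tip and turns on MADS-box genes of the AP1 and FUL type there.

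Levels were given by the authors as RPKM, reads scaled to gene length and library size, for 31855 gene models. Of these, 21184 reached 1 RPKM in at least 3 libraries and were tested as log2(RPKM + 0.5), a scale that understates the change of low genes. A gene is called here when its limma adjusted p lay under 0.05 after adjustment over all tested genes. Read totals were not used here, but relative depths recovered from rare genes were alike, 0.932 to 0.946 in LB and 0.918 to 0.957 in LE. LB replicate 2 stood apart from its group. Across genes, it correlated at 0.954 and 0.957 with the other LB libraries, against 0.983 between those 2; its highest correlation with LE was 0.966. LE libraries correlated at 0.979 to 0.984 with each other. The median spread within a group (SD on the log2 scale) was 0.246 in LB and 0.166 in LE. For some of the genes and lists that this library moves, values are given with and without it.

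Few genes separated the lower leaf from the ear leaf at low density. Of the 21184 genes, 61 were called (0.288%), 46 higher in LB (0.217%) and 15 lower (0.0708%). The median log2 fold change of all tested genes was near 0, at -0.002, and 267 genes differed by at least 1 on the log2 scale, of which 43 were called. In whole leaves, fewer cells of a type and less RNA per cell cannot be told apart. At an unadjusted p under 0.05 there were 2552 genes (12%), and in 2934 genes (13.9%) the 3 LB libraries lay all above or all below the 3 LE libraries. The count depended on single libraries. It was 48 without LB replicate 2, 23 without LE replicate 3, 30 without LE replicate 1, 34 without LB replicate 3 and 89 without LE replicate 2. It was 19 when only LB and LE were fitted, 38 without LA and 181 with library weights, which counted LB replicate 2 the least. Of the 61 genes, 20 were called whichever 1 of the 6 libraries was left out, 16 of them higher and 4 lower.

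The named genes of smallest p were 2 floral MADS-box genes, both at low levels in the lower leaf. m15 (GRMZM2G553379), also named MADS15, and m4 (GRMZM2G032339) encode factors of the AP1 and FUL type, known in grasses for promoting the floral transition. m15 had 0.668, 0.677 and 0.606 RPKM in LB, against 15.9, 30.9 and 35.9 RPKM in LE. m4 had 3.02, 1.81 and 1.44 RPKM in LB, against 51.05, 87.04 and 63.9 RPKM in LE. In both genes every LE library lay far above every LB library, and LB replicate 2 did not stand apart. Without it the log2 fold changes were -4.55 for m15 and -4.67 for m4. The mean of m15 was 42.4-fold higher in LE, and that of m4 32.3-fold. Their log2 fold changes were -4.53 ± 0.24 (SE) and -4.72 ± 0.30, with limma adjusted p of 2.51e-08 and 2.2e-07. Both stayed called in all 6 fits without 1 library and in all 11 other settings, with adjusted p of at most 0.000374 for m15 and 0.000292 for m4. These are related copies, and how the authors' counting treated reads that match both is not given in the sources used here.

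The same pair of genes was low in the lower leaf at high density. m15 averaged 0.893 ± 0.084 RPKM in HB and 26.7 ± 9.66 RPKM in HE (SD, n = 3 each), and m4 averaged 8.52 ± 4.91 RPKM in HB and 83.04 ± 10.99 RPKM in HE. The log2 fold changes of HB over HE were -4.23 and -3.34 (limma adjusted p 1.85e-08 and 2.87e-06). Up the plant at low density, mean m15 levels were 0.650 RPKM in LB, 27.6 RPKM in LE and 51.2 RPKM in the leaf titled LA. Those of m4 were 2.09, 67.3 and 79.5 RPKM in the same order, and the LE and LA libraries of m4 overlapped. The test of the difference between densities did not pass for m15 (adjusted p = 0.656) or m4 (0.0758).

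**Figure D1:**
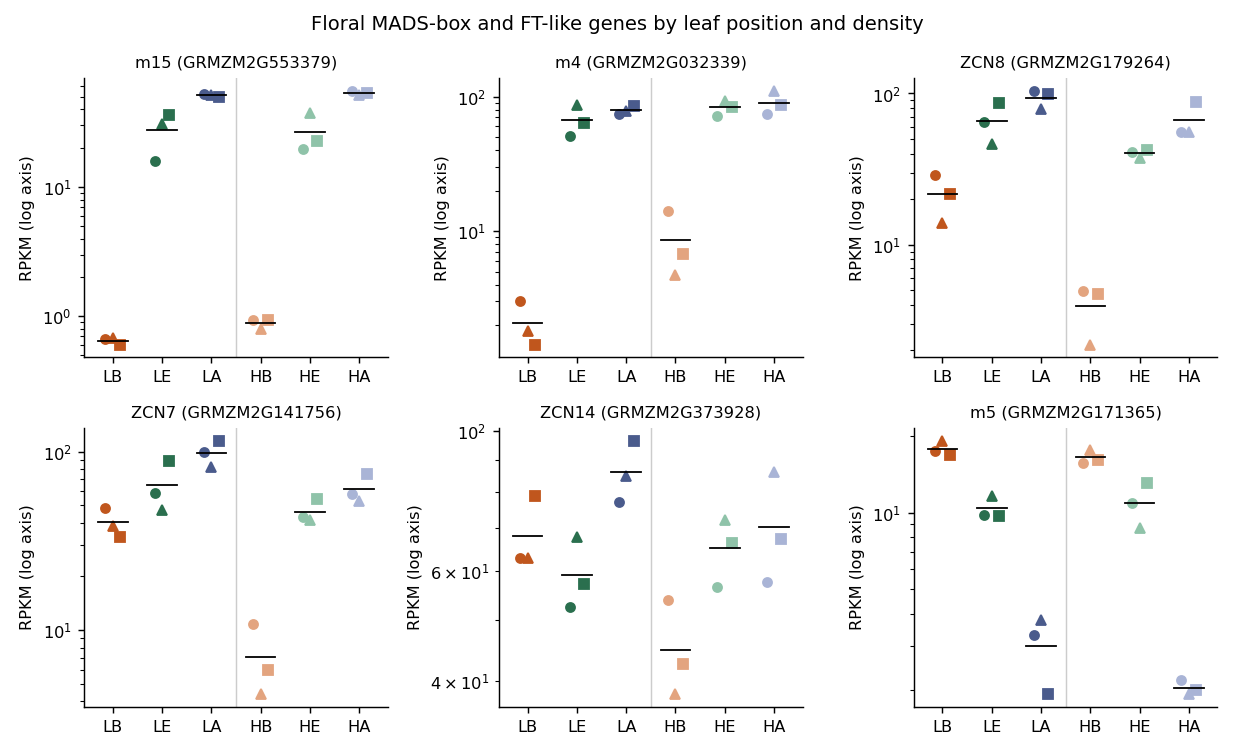
RPKM on a log axis of 6 genes in each library, by leaf position at low density (LB, LE, LA) and at high density (HB, HE, HA), with 3 libraries a group (circle, triangle and square for replicates 1 to 3) and the group mean as a line. m15 and m4 were lowest in LB and HB, with means of 0.650 and 2.09 RPKM in LB, and ZCN8 and ZCN7 reached their lowest levels in HB.

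No other MADS-box gene was called. Of 35 gene models matched by name, 18 passed the filter, and m15 and m4 were called lower, against 0.0708% of all tested genes. The median log2 fold change over the 18 was 0.085, and -0.105 without LB replicate 2. m5 (GRMZM2G171365), named SOC1 after the Arabidopsis flowering integrator, had 17.4, 19.2 and 16.8 RPKM in LB, against 9.83, 11.6 and 9.71 RPKM in LE. The 2 groups did not overlap, but its log2 fold change of 0.75 ± 0.18 was not called (adjusted p = 0.111), except when LA was left out (0.0424). It ran opposite to m15 and m4, with means of 17.8 RPKM in LB, 10.4 RPKM in LE and 3.00 RPKM in LA. zap1 (GRMZM2G148693), an AP1 homolog chosen after its values were seen, had 2.21, 3.32 and 1.90 RPKM in LB, against 2.84, 3.78 and 4.19 RPKM in LE, and these groups overlapped (adjusted p = 0.524).

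Among FT-like genes, the florigen gene ZCN8 (GRMZM2G179264) was lower in the lower leaf. It had 29.1, 14.01 and 21.7 RPKM in LB, against 64.6, 46.2 and 86.3 RPKM in LE. No LB library reached an LE library, and LB replicate 2 was the lowest of the 6. The log2 fold change was -1.596 ± 0.29 (adjusted p = 0.0286). The call was lost without LE replicate 1, LE replicate 3, LB replicate 2 or LB replicate 3, without LA, with LB and LE fitted alone and after median-ratio rescaling, with an adjusted p of up to 0.166 over all settings, and without LB replicate 2 the log2 fold change was -1.32 (0.0925). At high density ZCN8 averaged 3.94 ± 1.52 RPKM in HB and 40.3 ± 2.37 RPKM in HE (SD, n = 3 each; limma adjusted p = 2.87e-06).

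ZCN7 (GRMZM2G141756), a close relative of ZCN8 named here after its values were seen, had 48.55, 38.6 and 33.4 RPKM in LB, against 59.05, 47.2 and 89.3 RPKM in LE. The groups overlapped through LB replicate 1 and LE replicate 2, and the log2 fold change of -0.66 ± 0.27 was not called (adjusted p = 0.331). The difference between densities, HB-HE minus LB-LE, was -2.05 on the log2 scale for ZCN7 (limma adjusted p of the interaction, 0.00961) and -1.67 for ZCN8 (0.0342), with lower values in HB relative to HE than in LB relative to LE. For ZCN8 the interaction was lost in 9 settings. ZCN25 (GRMZM2G021560) had 2.90, 2.90 and 2.91 RPKM in LB, against 5.94, 4.27 and 4.43 RPKM in LE, without overlap and short of the threshold (adjusted p = 0.0716), which it passed with library weights (0.032) and without the intensity trend (0.0406). ZCN11 (GRMZM2G117057), another ZCN gene that may belong to a different branch of the family, went the other way. It had 2.39, 10.18 and 2.25 RPKM in LB, against 1.08, 2.02 and 0.594 RPKM in LE. The libraries did not overlap, LB replicate 2 was far above the rest, and the log2 fold change of 1.43 ± 0.52 was not called (adjusted p = 0.277), nor was the 0.79 without that library (0.433). ZCN14 (GRMZM2G373928) overlapped between LB and LE (adjusted p = 0.665). The list of FT-like genes was matched by ZCN names and may hold other branches of the family. Of its 11 gene models 6 were tested, with 1 called lower, against 0.0708% of all tested genes. The median log2 fold change of the 6, ZCN11 included, was -0.24, or -0.48 with 0 called without LB replicate 2.

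Among the called genes with a name and a mean of at least 5 RPKM, ZIP4 and aba1 rose by more than 1 on the log2 scale. ZIP4 (GRMZM2G111300), of the ZIP family of zinc and iron transporters, had 33.6, 33.3 and 45.7 RPKM in LB, against 10.4, 17.0 and 12.5 RPKM in LE. Every LB library lay above every LE library, at a mean of 37.6 ± 7.07 RPKM in LB and 13.3 ± 3.39 RPKM in LE (SD, n = 3 each). Its log2 fold change of 1.48 ± 0.19 (limma adjusted p = 0.00102) stayed called in all settings. aba1 (GRMZM2G136910), also asr1, encodes an abscisic acid-, stress- and ripening-induced protein and was abundant. It had 567, 509 and 423 RPKM in LB, against 150.3, 152 and 202 RPKM in LE. The groups were well apart, and the log2 fold change was 1.57 ± 0.30 (adjusted p = 0.0357). Leaving out any 1 of the 6 libraries ended that call, and without LB replicate 2 the fold change was 1.55 (0.0918).

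GT1 (GRMZM2G421491), sfp5 (GRMZM2G444801) and hao1 (GRMZM2G076239) rose by less than 1 on the log2 scale. GT1 had 21.4, 26.1 and 20.7 RPKM in LB, against 13.4, 12.3 and 10.9 RPKM in LE, a log2 fold change of 0.87 ± 0.13 (adjusted p = 0.00605). Its call was lost without LE replicate 3 and with LB and LE fitted alone. sfp5 rose by 0.93 ± 0.19 on the log2 scale (0.0464) and hao1 by 0.74 ± 0.15 (0.0423). The call of sfp5 was lost without any 1 of the 6 libraries, and that of hao1 without 4 of them, LB replicate 2 among these. HIT2 (GRMZM2G126765) and TAZ1 (GRMZM2G004161) stayed under 5 RPKM in both group means, outside the rule for named genes, and were added after their values were seen. HIT2 had 2.18, 1.91 and 2.16 RPKM in LB, against 0.204, 0.294 and 0.555 RPKM in LE (log2 fold change 1.62 ± 0.20, adjusted p = 0.000804), and TAZ1 rose by 0.76 ± 0.15 (0.0406). HIT2 stayed called without each of the 6 libraries but not with LB and LE fitted alone (0.0668), whereas TAZ1 was called in 1 of those 6 fits and lost in 11 settings in all.

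Besides the flowering genes, Sod4A and MYBR87 were called lower. Sod4A (GRMZM2G058522), a copper and zinc superoxide dismutase, had 46.8, 40.4 and 36.5 RPKM in LB, against 65.1, 72.04 and 82.2 RPKM in LE. The LE libraries lay above all LB libraries, and the log2 fold change was -0.82 ± 0.13 (adjusted p = 0.00605), lost without LE replicate 3 and with LB and LE fitted alone. MYBR87 (GRMZM2G158117), a MYB-related factor, had 2.49, 1.45 and 2.17 RPKM in LB, against 12.5, 6.25 and 5.26 RPKM in LE. LE replicate 1 was the highest by a wide margin, and the call (-1.67 ± 0.33, adjusted p = 0.0423) was lost without any 1 library and was held in 3 of the 11 other settings. The related MYBR41 (GRMZM2G150260) had 4.70, 2.29 and 2.74 RPKM in LB, against 14.7, 6.71 and 9.47 RPKM in LE, without overlap and without a call (-1.51 ± 0.35, adjusted p = 0.106).

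**Figure D2:**
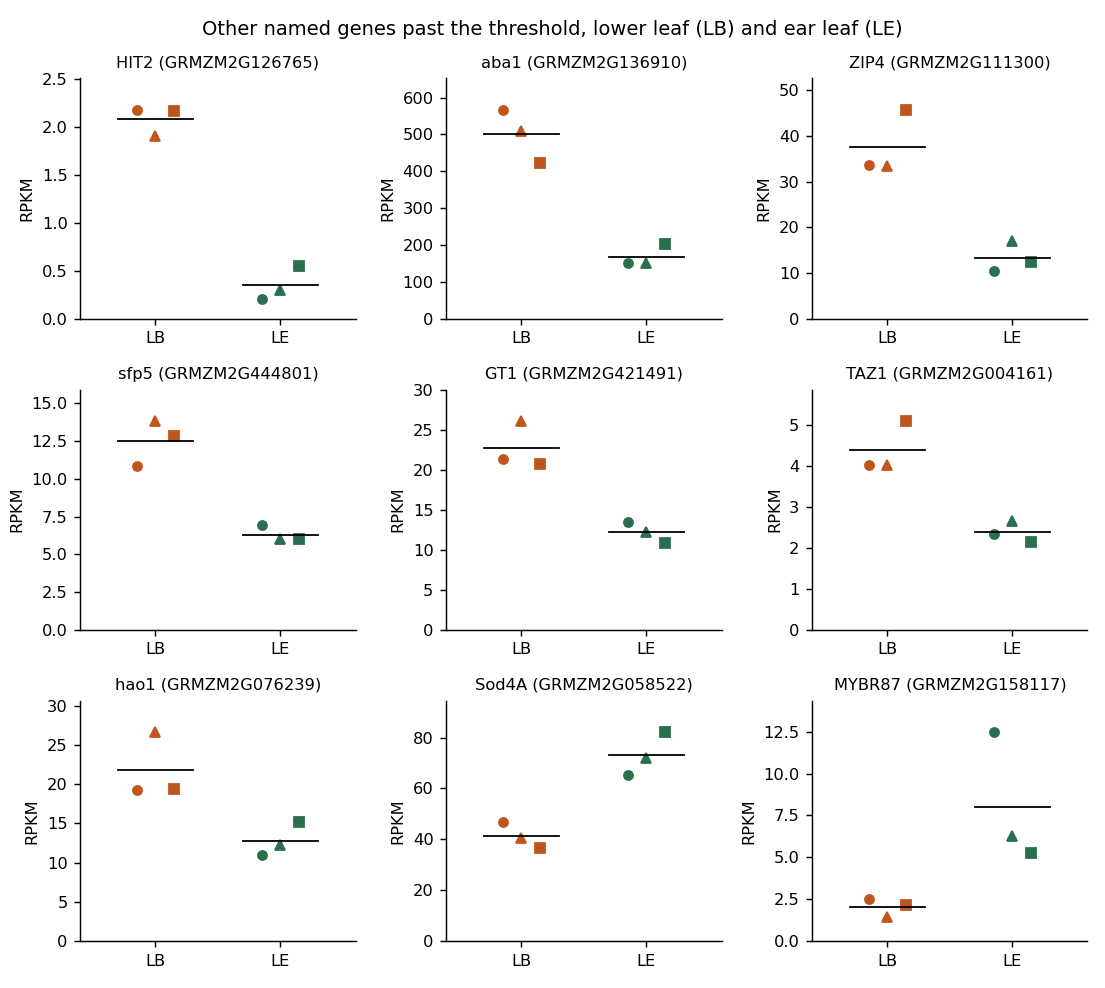
RPKM of the 9 other named genes called between LB and LE, on linear axes from 0, with 3 libraries a group (circle, triangle and square for replicates 1 to 3) and the mean as a line. In each panel the LB and LE libraries do not overlap, as in ZIP4 with 33.3 to 45.7 RPKM in LB and 10.4 to 17.0 RPKM in LE.

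Of the 61 called genes, 12 had a gene name and 49 did not. The 2 unnamed genes of smallest p that rose were GRMZM2G110369, with 39.8, 17.6 and 39.9 RPKM in LB against 0.416, 0.798 and 0 RPKM in LE, and GRMZM2G068519, with 25.02, 17.3 and 27.0 RPKM in LB against 1.596, 2.18 and 1.88 RPKM in LE. LB replicate 2 was the lowest LB library in both and still far above LE. Their log2 fold changes were 5.20 ± 0.42 (limma adjusted p = 5.58e-06) and 3.29 ± 0.30 (2.55e-05). Of those that fell, GRMZM2G064096 had 10.2, 12.1 and 5.41 RPKM in LB, against 54.1, 69.2 and 97.9 RPKM in LE. GRMZM2G416667 had 10.7, 11.5 and 12.5 RPKM in LB, against 22.03, 22.3 and 21.04 RPKM in LE. The changes were -2.96 ± 0.33 (0.000248) and -0.89 ± 0.11 (0.000855).

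The 61 genes were then followed in the high-density pair. Their direction was the same in HB over HE for 59 genes, and 43 were called the same way there and 0 the opposite way. The difference between densities was called for 13 of the 61, against 3.85% of all tested genes. The LB and LE libraries enter both that test and the choice of the 61. Of the 46 genes higher in LB, 31 (67.4%) were also called higher in HB, where 17.2% of all tested genes were called higher. Of the 15 lower in LB, 12 (80%) were called lower in HB, where 10.7% of all tested genes were. Both comparisons take the spread of a gene from the same fit, so a gene of small spread is more easily called in both. These shares are therefore not independent of the choice of the 61. The median log2 fold changes of the 46 were 1.31 for LB over LE and 0.80 for HB over HE, and those of the 15 were -1.44 and -1.48. ZIP4 and Sod4A were among the genes not called at high density. ZIP4 averaged 29.2 ± 1.605 RPKM in HB and 22.6 ± 2.17 RPKM in HE (limma adjusted p = 0.166), and Sod4A 49.9 ± 4.59 RPKM in HB and 50.3 ± 2.05 RPKM in HE (0.943; SD, n = 3 each).

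In the other direction, the high-density pair had 5904 called genes (27.9%), 3647 of them higher, against 2554 of 5386 after median-ratio rescaling. Between LB and LE, 0.728% of the 5904 had a call in the same direction. The genes called higher in HB had a median log2 fold change of 0.155 in LB over LE, and 78.7% of them lay above 0. Those called lower in HB had a median of -0.199, with 20.5% above 0. These medians differed between libraries of 1 group. Set against the mean of LE, the first was 0.124, 0.326 and 0.014 in LB replicates 1, 2 and 3, and the second was -0.117, -0.393 and -0.062. Each LE library set against the other LE libraries gave -0.091, 0.166 and -0.073 for the first and 0.114, -0.128 and 0.019 for the second. LB replicate 2 lay furthest towards the HB pattern in both, and LB replicates 1 and 3 lay within the range of the LE libraries.

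**Figure D3:**
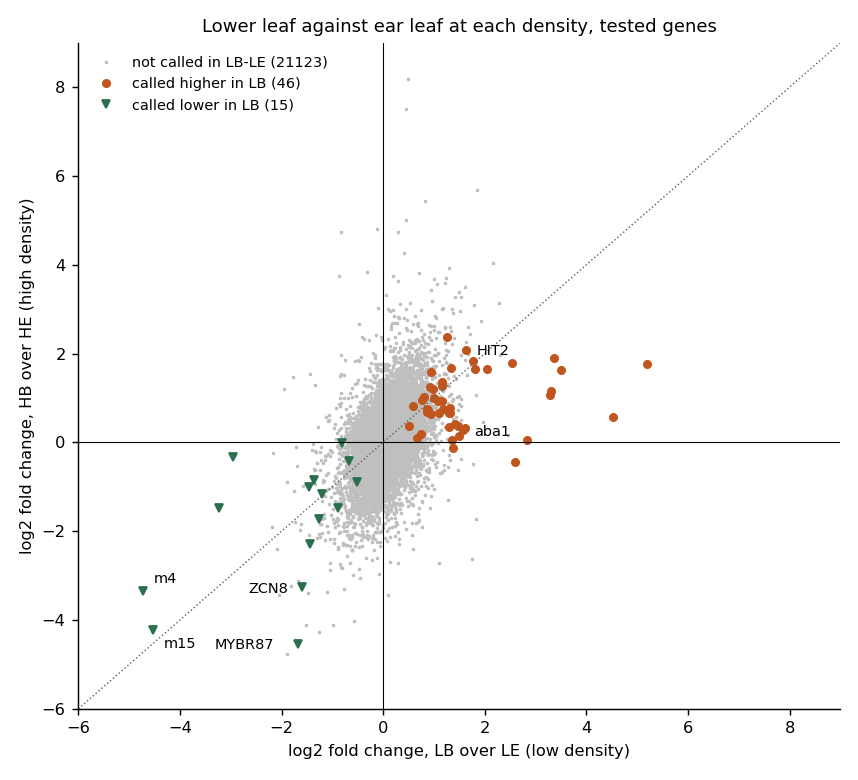
Log2 fold change of LB over LE (x) and of HB over HE (y) for the 21184 tested genes, with the 46 genes called higher in LB as circles, the 15 called lower as triangles and equal values on the dotted line. Of the 61 called genes, 59 have the same sign on both axes, and most grey points spread further along y than along x.

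Photosynthesis genes showed no called difference between the lower leaf and the ear leaf at low density. Of 27 genes of photosystems, electron transport and antenna, 0 were called by limma, 5 had an unadjusted p under 0.05 (3 higher and 2 lower, against 12% of all tested genes), and the median log2 fold change was 0.10. Over all tested genes 0.288% were called between LB and LE. At high density 23 of the same 27 were called lower in HB and 2 higher, against 10.7% and 17.2% of all tested genes, with a median of -1.19. The difference between densities was called for 3.85% of all tested genes, 1.76% towards higher and 2.09% towards lower levels in the lower leaf at high density. It was called for 13 of the 27, all towards lower levels in HB, and for 20 without LB replicate 2. Without that library the difference was called for 2933 of the 21184 tested genes, 1201 of them towards lower levels. CP24 (GRMZM2G092427), an antenna protein of photosystem II, had 67.9, 22.2 and 114 RPKM in LB, against 44.3, 48.1 and 62.0 RPKM in LE. LB replicate 2 was below all LE libraries and the other LB libraries above them. The list shared that split, with medians of 0.14, -0.37 and 0.46 in LB replicates 1, 2 and 3 against the LE mean, and a median of 0.31 without replicate 2.

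Within the C4 shuttle, pep1 (GRMZM2G083841), the phosphoenolpyruvate carboxylase of mesophyll cells, had 3881, 2063 and 5264 RPKM in LB, against 5361, 4182 and 4788 RPKM in LE. The groups overlapped, and the log2 fold change was -0.45 ± 0.32 (limma adjusted p = 0.627), or -0.072 without LB replicate 2. At high density it was -3.06 (1.26e-05), and the difference between densities was called (0.00728). C4ppdkZm1 (GRMZM2G306345), the pyruvate phosphate dikinase that regenerates the acceptor, had 5252, 3592 and 5819 RPKM in LB, against 6650, 5322 and 6369 RPKM in LE (adjusted p = 0.695). ME1 (GRMZM2G085019), the NADP-malic enzyme of bundle sheath cells, had 904, 892 and 878 RPKM in LB, against 775, 644 and 564 RPKM in LE. All 3 LB libraries lay above the LE libraries for ME1, short of the threshold (0.44 ± 0.24, adjusted p = 0.497). None of the 9 C4 genes was called by limma between LB and LE, against 0.288% of all tested genes. An unadjusted p under 0.05 was reached by 1 of the 9, against 12% of all tested genes. The median of the 9 was -0.295, or -0.072 without LB replicate 2.

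Of 7 genes for Rubisco, its assembly and chloroplast glyceraldehyde phosphate dehydrogenase, 5 had higher values in LB, without any call. The small subunit gene rbcS GRMZM2G098520 had 249, 195 and 288 RPKM in LB, against 138, 172 and 101 RPKM in LE (0.84 ± 0.29, adjusted p = 0.245). The other copy, rbcS GRMZM2G113033, had 618, 392 and 711 RPKM in LB, against 429.5, 429 and 284 RPKM in LE, with LB replicate 2 among the LE libraries (0.57 ± 0.30, 0.469). Reads may be split between these copies. Of the 7 genes 0 were called by limma between LB and LE, against 0.288% of all tested genes. An unadjusted p under 0.05 was reached by 2, both higher, against 12% of all tested genes. The median of the 7 was 0.32, or 0.40 without LB replicate 2. At high density 4 of the 7 were called lower in HB, against 10.7% of all tested genes. The difference between densities was called for 4, all towards lower levels in HB, against 2.09% of all tested genes. Without LB replicate 2 it was called for 6, all towards lower levels, against 1201 of the 21184 tested genes.

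**Figure D4:**
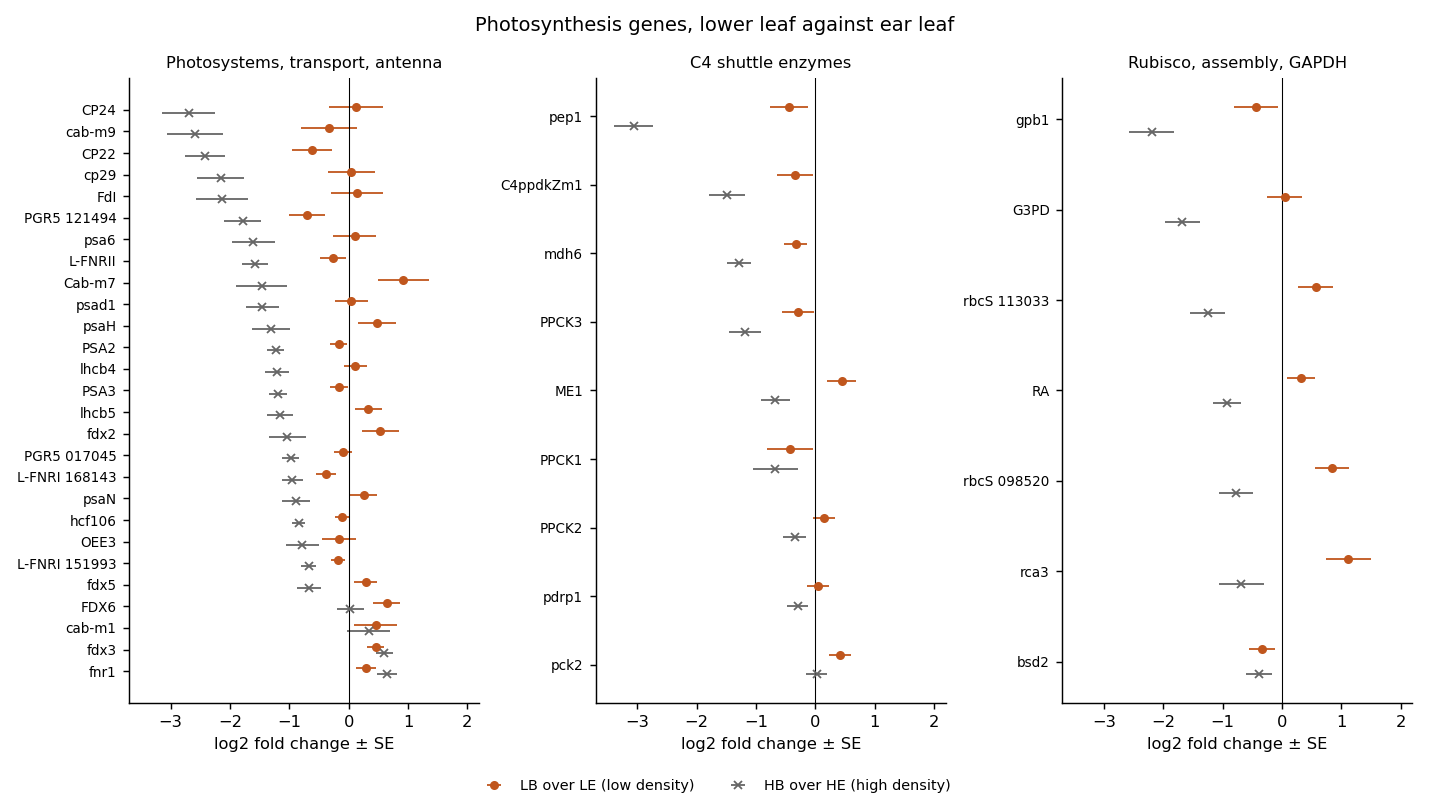
Log2 fold change ± SE of single genes in the 3 photosynthesis lists, with circles for LB over LE and crosses for HB over HE; repeated gene names carry the last digits of the gene ID. The circles lie around 0 (list medians 0.10, -0.295 and 0.32), whereas most crosses lie below 0 (23 of 27 photosystem genes called lower in HB).

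The markers of mesophyll and bundle sheath are themselves genes of these photosynthesis lists, so their sums are no separate measure. The summed level of 9 mesophyll markers was 9021 to 15390 RPKM in LB and 13260 to 14560 RPKM in LE, with LB replicate 2 the lowest. That of 5 bundle sheath markers was 1951 to 2420 RPKM in LB and 1285 to 1814 RPKM in LE, without overlap. No marker was called by limma, and the part of cell composition in the results was not tested. The sum of 8 infection-response genes was 3232, 635 and 2704 RPKM in LB, against 1296, 1428 and 1291 RPKM in LE, so that LB replicate 2 was below and the other LB libraries above the ear leaf. Sums of phloem, xylem, epidermis, dividing-cell and inflorescence markers overlapped between LB and LE.

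Listed genes of senescence and autophagy were not called in the lower leaf at low density in the main fit. That fit held all libraries with equal weight and no block for replicate number. SGR2 (GRMZM2G091837), the stay-green factor that triggers the loss of chlorophyll, had 6.44, 7.63 and 4.20 RPKM in LB, against 4.19, 3.10 and 1.501 RPKM in LE. The lowest LB library lay just above the highest LE library, and the log2 fold change was 0.99 ± 0.28 (limma adjusted p = 0.162). At high density it averaged 46.4 ± 14.2 RPKM in HB and 3.11 ± 0.52 RPKM in HE (SD, n = 3 each). ICL (GRMZM2G056369), the isocitrate lyase of the glyoxylate cycle, had 0.160, 0.458 and 0.054 RPKM in LB and was listed at 0 in all 3 LE libraries, whereas HB averaged 202 RPKM. LIP (GRMZM2G102183), its malate synthase, had 0.209, 0.503 and 0.0265 RPKM in LB, against 0.0269, 0.0517 and 0 RPKM in LE, and averaged 134 RPKM in HB. Among LB libraries replicate 2 was the highest for SGR2, ICL and LIP.

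Of 22 genes for senescence proteases and autophagy, 0 were called between LB and LE by limma, 1 had an unadjusted p under 0.05, and the median was 0.13, or 0.032 without LB replicate 2. In HB 11 of the 22 were called higher, against 17.2% of all tested genes. mir2 (GRMZM2G150256), a cysteine protease, was nearest to the threshold with 65.1, 57.2 and 63.1 RPKM in LB, against 35.9, 46.0 and 37.7 RPKM in LE. The groups did not overlap (0.63 ± 0.14, adjusted p = 0.0756), and a call was made with library weights (0.0192) and without LE replicate 2 (0.0451). Likewise 0 of 18 WRKY factors, a family active in ageing and defence, were called by limma and 4 had an unadjusted p under 0.05, against 12% of all tested genes, and 10 were called higher in HB, against 17.2%. Of 16 NAC factors 0 were called and 2 had an unadjusted p under 0.05. NIR (GRMZM2G079381), the nitrite reductase of nitrate assimilation, had 13.6, 10.7 and 16.4 RPKM in LB, against 22.3, 19.5 and 22.98 RPKM in LE, without overlap and without a call (-0.67 ± 0.22, adjusted p = 0.235).

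Water channels had higher values in the lower leaf, without a call. Of 17 aquaporins 14 were above 0, and 7 had an unadjusted p under 0.05, all higher in LB, against 12% of all tested genes. In 6 the libraries did not overlap, against 13.9% of all genes. The median log2 fold change was 0.44, and 0.47 without LB replicate 2. PIP1-3 (GRMZM2G392975), a plasma membrane aquaporin, had 13.6, 20.1 and 15.3 RPKM in LB, against 8.23, 10.2 and 6.27 RPKM in LE (0.96 ± 0.23, limma adjusted p = 0.112). PIP2-1 (GRMZM2G014914) had 47.7, 78.0 and 50.6 RPKM in LB, against 32.1, 36.1 and 18.4 RPKM in LE (1.03 ± 0.26, adjusted p = 0.114). LB replicate 2 was the highest library for both. pip2b (GRMZM2G092125) had 11.1, 10.5 and 11.4 RPKM in LB, against 8.38, 7.61 and 6.05 RPKM in LE, not called (adjusted p = 0.21), and at high density it was lower in HB, so that the difference between densities was called (0.00333). PIP1-3 (log2 fold change 0.665, limma adjusted p = 0.0414) and PIP2-1 (0.807, 0.0262) were called higher in HB over HE. Of the 17 aquaporins 3 were called higher there and 2 lower, against 17.2% and 10.7% of all tested genes.

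Hormone and defence lists held 1 called gene, aba1. Of 43 abscisic acid genes 1 was called higher and 0 lower, against 0.217% and 0.0708% of all tested genes, with a median of 0.19. At an unadjusted p under 0.05 there were 9 higher and 1 lower, against 12% of all tested genes in either direction. Of 38 jasmonate and lipoxygenase genes 0 were called by limma and 7 had an unadjusted p under 0.05, against the same 12%. Among them aos1 (GRMZM2G067225), the allene oxide synthase of jasmonate synthesis, had 52.2, 51.1 and 35.8 RPKM in LB, against 14.7, 30.5 and 13.3 RPKM in LE (adjusted p = 0.271). The proteinase inhibitor gene MPI (GRMZM2G028393) had 278, 243.5 and 193 RPKM in LB, against 61.1, 102 and 49.5 RPKM in LE. Its libraries did not overlap, yet its SE of 0.67 on a change of 1.79 left it uncalled (adjusted p = 0.289). Of 11 pathogenesis-related genes 0 were called by limma and 3 had an unadjusted p under 0.05, with medians of 1.67, -0.67 and 0.98 in LB replicates 1, 2 and 3 and of 1.45 without replicate 2.

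Benzoxazinoids are the main defence compounds of young maize, and bx9 (GRMZM2G161335), a glucosyltransferase of that pathway, had 41.6, 41.8 and 41.6 RPKM in LB, against 25.5, 30.0 and 24.6 RPKM in LE. The libraries did not overlap, and the adjusted p was 0.0715 (0.64 ± 0.14), or 0.0335 with library weights. Of 9 benzoxazinoid genes 0 were called by limma between LB and LE. An unadjusted p under 0.05 was reached by 2, against 12% of all tested genes. In the high-density pair 1 was called higher in HB and 4 lower, against 17.2% and 10.7% of all tested genes. Of 38 auxin and 28 cytokinin genes 0 were called by limma, with 7 and 6 at an unadjusted p under 0.05. CKX5 (GRMZM2G325612), which degrades cytokinins, had 11.8, 0.935 and 1.24 RPKM in LB, against 11.1, 13.5 and 7.17 RPKM in LE. LB replicate 1 was at the level of LE and the others well below it, and without that library the fall was called (adjusted p = 0.00858), against 0.246 with it.

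Most carotenoid genes had lower values in LB, without a call. Of 21 carotenoid and plastid isoprenoid genes 5 were above 0 and 6 had an unadjusted p under 0.05, all lower, with 0 called by limma. Over all tested genes 12% had such a p in either direction. The median was -0.28, but -0.03 without LB replicate 2. Of 35 sucrose, starch and sugar transport genes 0 were called by limma, and 2 higher and 6 lower had an unadjusted p under 0.05. spp1 (GRMZM2G055489), the sucrose-phosphate phosphatase, had 108, 95.2 and 105 RPKM in LB, against 151, 127 and 141 RPKM in LE, without overlap (-0.44 ± 0.13, adjusted p = 0.21). GBSSIIa (GRMZM2G008263), a granule-bound starch synthase, had 5.26, 1.17 and 3.78 RPKM in LB, against 13.3, 6.98 and 7.93 RPKM in LE. Its log2 fold change was -1.47 ± 0.39 (adjusted p = 0.136), and -0.94 without LB replicate 2. Of 15 antioxidant genes Sod4A alone was called, against 0.288% of all tested genes, and 5 had an unadjusted p under 0.05, all lower.

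The remaining lists held 2 called genes. Of 34 MYB factors MYBR87 was called, and of 33 metal and ion transport genes ZIP4 was, against 0.288% of all tested genes. No member was called by limma among 37 bZIP and 20 AP2/ERF factors, 23 glutathione S-transferases, 19 lignin and flavonoid, 19 cell wall and 20 heat shock genes, with 9, 2, 4, 3, 4 and 0 at an unadjusted p under 0.05. The same held for 10 chlorophyll, 18 nitrogen, 7 phosphate, 8 clock, 8 phytochrome and light signalling, 8 cuticle and 37 ribosomal protein genes, with 1, 3, 1, 0, 4, 1 and 0. Over all tested genes 12% had an unadjusted p under 0.05. Leaving out LB replicate 2 called 1 gene matched by name to the phytochrome and light signalling list, Spo11-1 (GRMZM2G129889). That symbol is the name of a meiotic recombination gene, so what this gene model encodes is uncertain here. Spo11-1 had 4.09, 6.88 and 3.50 RPKM in LB against 6.78, 6.35 and 6.76 RPKM in LE (limma adjusted p = 0.0341 without LB replicate 2, 0.292 with it). The red light receptor gene PHYB (GRMZM2G124532) had 46.6, 70.4 and 47.9 RPKM in LB, against 47.9, 64.5 and 52.2 RPKM in LE, with wide overlap (adjusted p = 0.991).

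**Figure D5:**
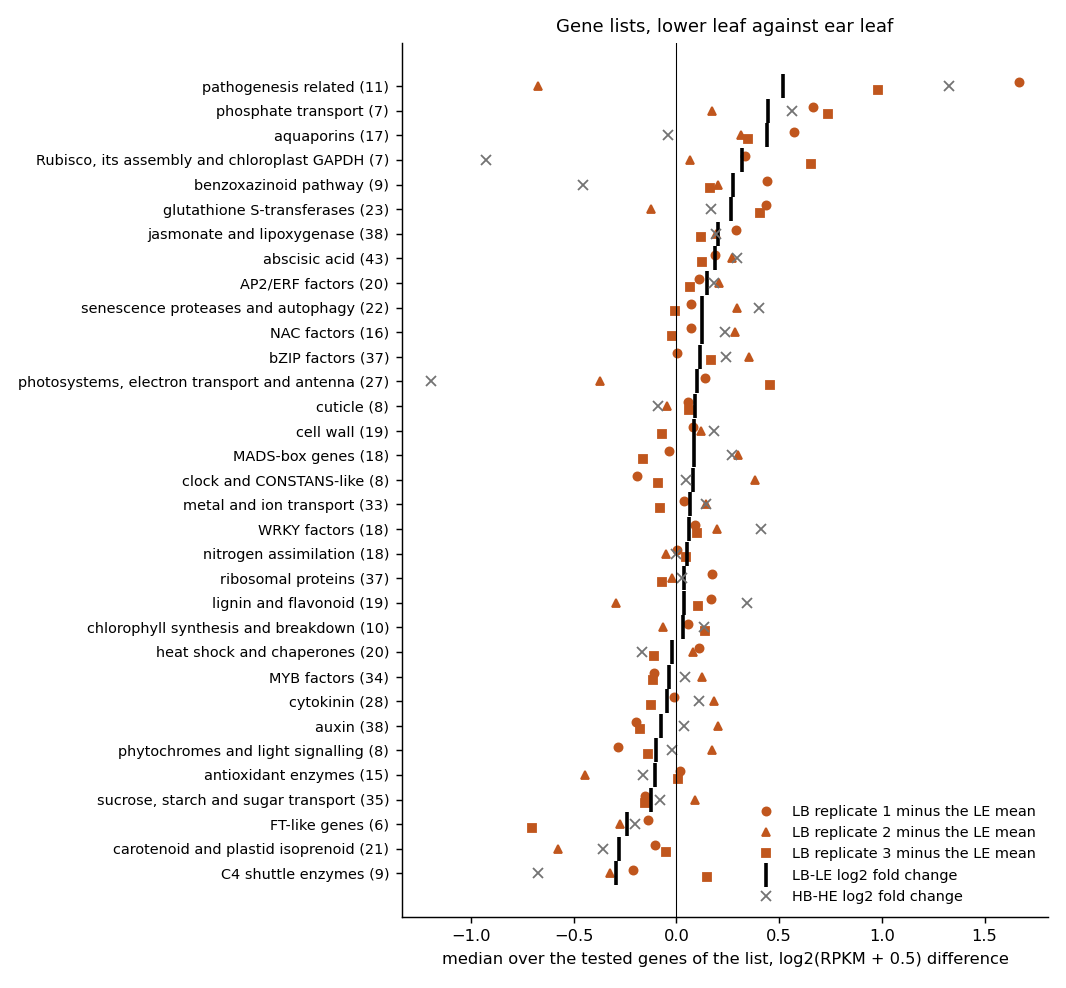
Median over the tested genes of each list (number in brackets) of the difference from LE, for LB replicate 1 (circle), 2 (triangle) and 3 (square) against the LE mean, with the LB over LE median as a bar and the HB over HE median as a cross. In the pathogenesis-related list the 3 LB libraries lie at 1.67, -0.67 and 0.98, and in the aquaporins all 3 lie above 0.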

How the data were processed

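RNA was sequenced from leaves of Xianyu 335 in 18 libraries, 3 in each of 6 groups taken from the library titles. The authors deposited RPKM for 31855 gene models per library. Per the submitters' processing notes, tools named are Trimmomatic 0.35, HISAT 0.1.6 and HTSeq 0.6.1, with the build B73 RefGen_v3. The RPKM formula, gene lengths and strandedness are not given in the sources used here, so values of overlapping or near-identical genes may be mixed. No count test was used.

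Genes reaching 1 RPKM in 3 or more of 18 libraries were fitted as log2(RPKM + 0.5) with limma 3.58.1 in R 4.3.3, with 1 mean per group over all libraries (12 residual degrees of freedom), an intensity trend and 2-sided tests. P-values were adjusted by Benjamini-Hochberg over all 21184 tested genes, and genes under 0.05 were called. The contrasts were LB over LE, HB over HE and the difference of these, HB-HE minus LB-LE. For 1 gene, exact permutation of 3 against 3 libraries gives no p below 0.1. The fit was tested on simulated data. The design had no replicate block. Same-numbered LB and LE libraries did not all deviate together, which with 3 libraries a group cannot decide whether they are paired.

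Relative depth came from 2038 rare genes, where 1 read was worth a median of 0.0436 RPKM. Of 2030 values above 1 read, 99.2% lay within 0.1 of a whole multiple. Read totals were not used here, so no counting intervals are given.

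Names came from a RefSeq table of Zm-B73-REFERENCE-NAM-5.0 that matched 17838 gene models, 489 to more than 1 row, and named 2526. That build differs from the files', so no coordinates are given. Named genes are, per direction, the 15 largest called changes with a name, a mean of at least 5 RPKM and no overlap (filled with the smallest p), 3 of smallest p per list, 5 interactions per direction and a few set genes. HIT2, TAZ1, Spo11-1 and zap1, and the FT-like genes ZCN7 and ZCN14, are named after their values were seen. Described genes without a symbol, also sought, were not found, as the table holds no descriptions. The libraries, 33 gene lists and 8 marker lists were chosen with earlier results of these data known, and list patterns after the names had been seen. The Rubisco list is given without 1 gene, which is not reported here. Alternatives were other pseudocounts, filters, scalings, sample sets, a block, no trend, library weights and leaving out each replicate.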

Additional observations from a re-analysis of the deposited data

Results flagged for a closer look

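The position difference, lower leaf against ear leaf, differed between high and low density for 815 genes (3.85%) by the limma interaction test, HB-HE minus LB-LE. This count was 2933 without LB replicate 2, and all 815 were among them, against 221 without LB replicate 3. A positive interaction means a higher value in the lower leaf, relative to the ear leaf, at high density. Each gene named here had an adjusted p under 0.05 in that test, and the settings in which a call was lost are those of other processing choices and left-out replicates.

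Among the largest positive values were 7.70 for ICL (GRMZM2G056369), 7.05 for LIP (GRMZM2G102183), 4.62 for ALDH12 (GRMZM2G090245), 4.61 for GH3 (GRMZM2G378106) and 3.24 for CKX5 (GRMZM2G325612) on the log2 scale. SGR2 (GRMZM2G091837) followed with 2.68, Sod4A (GRMZM2G058522) with 0.80 and ZCN25 (GRMZM2G021560) with 0.79. CKX5 was lost in 16 settings, ZCN25 in 15 and Sod4A in 6.

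Among the negative values were -3.44 for RADIALIS (GRMZM2G114503), named after a snapdragon MYB-like gene, -2.86 for MYBR87 (GRMZM2G158117), -2.83 for CP24 (GRMZM2G092427), -2.61 for pep1 (GRMZM2G083841) and -2.60 for MYBR41 (GRMZM2G150260). ZCN7 (GRMZM2G141756) had -2.05, BX3 (GRMZM2G167549) -1.84 and the rbcS genes -1.82 (GRMZM2G113033) and -1.62 (GRMZM2G098520). ZCN8 (GRMZM2G179264) had -1.67, pip2b (GRMZM2G092125) -1.58, NIR (GRMZM2G079381) -1.48 and ZIP4 (GRMZM2G111300) -1.11. Of these, the calls of CP24, BX3, both rbcS genes, ZCN8 and ZIP4 were lost in 7 to 12 settings, NIR in 2 and pep1 in 1.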

How the results depend on the processing

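For LB against LE, 19 genes were called with LB and LE fitted alone, 38 without LA, 195 with the replicate number as a block and 181 with library weights, against 61. The block also called named genes given above as not called, among them MYBR41 (limma adjusted p = 0.0139), GBSSIIa (0.0291) and PIP1-3 (0.0457). So were mir2, bx9 and ZCN25 called with the block. Leaving out each replicate in turn gave 23 to 89. Other scalings, pseudocounts and filters gave 46 to 58. The block changed the interaction count to 1566 and weights to 3428, against 815, and leaving out each replicate gave 221 to 2933. For HB against HE no setting moved the count of 5904 by 1.5 times, but 3647 of the calls were higher, against 2554 of 5386 after median-ratio rescaling and 2933 of 5923 after quantile normalization, which shift the median of all genes by -0.114 and -0.104. For LB against LE these shifts were -0.001 and -0.017. The correlations of deviations of LB and LE libraries with the same number were 0.093, 0.120 and -0.147. LB replicate 3 correlated best with LE replicate 1 (0.177). With 3 libraries a group, these values cannot decide whether libraries of the same number are paired. Directions reversed for 2 named genes that were not called. PHYB was at 0.003 after quantile normalization, against -0.012, and without 1 replicate ranged from -0.202 to 0.109. CP24 ranged from -0.386 to 0.783 without 1 replicate, against 0.128. Named genes called between LB and LE kept their direction in every setting run. The cause of these changes was not tested, apart from fewer libraries in the fits that leave some out. Without read totals, precision at low RPKM is not known.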
